A study of Mus musculus with 6 samples.

Results

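The genes described here are 8 genes of cholesterol synthesis in mouse bone marrow: Hmgcs1, Idi1, Fdps, Fdft1, Sqle, Lss and Cyp51, which encode enzymes, and Srebf2, which encodes their main transcriptional activator. They were found by symbol among the 45037 probe sets of the array that are not array controls, and 22 probe sets named one of them. They are 8 of the 20577 genes that have a probe set of their own. None of the 8 encodes a receptor for LDL, so uptake is covered only by the list of uptake genes given further down.

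The samples are bone marrow cells of the femur, tibia and humerus of mice with leukaemia. All carried NUP98/HOXD13, a transgene that joins parts of a nuclear pore gene and a Hox gene and is used as a model of myelodysplastic syndrome and acute myeloid leukaemia. The 3 samples labelled Gfi1b KO had the genotype Gfi1b fl/fl, MxCre tg, and the 3 samples labelled Gfi1b wildtype had Gfi1b wt, MxCre tg, so the transgene and the Mx-driven, interferon-inducible recombinase were shared by both groups. Total RNA was hybridised to Affymetrix MG-430_2.0 arrays, 1 array per sample, and the deposited values are log2 RMA values. Age, sex, induction of the recombinase and whether each sample came from its own mouse are not given in the sources used here, so the tests reflect the spread of these 6 samples, which may be partly technical.

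Gfi1b, a transcriptional repressor of blood progenitors and the targeted gene, read 10.88, 11.63 and 11.67 in the samples labelled KO and 5.83, 6.37 and 4.38 in wildtype. Its level was thus above wildtype in all samples labelled KO. The sources used here do not give the part of the gene that the floxed allele removes. Every direction below is that of the labels. Array medians lay between 3.73 and 3.86, and a value near or below them is dim and compressed. Correlations across probe sets were 0.946 to 0.972 within groups and 0.858 to 0.932 between groups. The number of arrays limits the precision of every value.

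Cholesterol is built from acetyl-CoA through mevalonate to isoprenoid units, which are joined to farnesyl diphosphate and squalene and then closed into the sterol ring. The genes of the route are activated by SREBP-2, the product of Srebf2, a membrane protein that is cut and sent to the nucleus when sterols in the endoplasmic reticulum run low. Dividing cells use the route for new membrane, and the farnesyl and geranylgeranyl groups made on the way anchor small GTPases.

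Both probe sets of Idi1 rose and 1 of the 5 of Hmgcs1, which also names a predicted locus, fell. The 250 bases before the annotated starts of these genes are shown to set their proximal promoters side by side. They are RefSeq sequences of build GRCm38.p6, 5′ to 3′ on the strand of the gene, both on the plus strand, at chr13:8885356-8885605 for Idi1 and chr13:119690101-119690350 for Hmgcs1. Capitals mark CCAAT, the letters of the NF-Y box, on either strand (ATTGG on the reverse), and ACCCCAC, the end of the classic sterol regulatory element.
Idi1: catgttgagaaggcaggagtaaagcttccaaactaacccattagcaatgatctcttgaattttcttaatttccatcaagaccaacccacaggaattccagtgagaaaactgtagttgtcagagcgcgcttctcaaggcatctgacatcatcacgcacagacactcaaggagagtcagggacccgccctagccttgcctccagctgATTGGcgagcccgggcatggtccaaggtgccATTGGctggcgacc
Hmgcs1: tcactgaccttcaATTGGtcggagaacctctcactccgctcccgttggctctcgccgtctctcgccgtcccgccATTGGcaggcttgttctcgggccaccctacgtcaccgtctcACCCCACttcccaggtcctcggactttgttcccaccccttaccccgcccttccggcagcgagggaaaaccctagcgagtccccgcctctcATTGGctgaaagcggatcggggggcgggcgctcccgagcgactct

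The Idi1 window held CCAAT at 2 places and the Hmgcs1 window at 3, all on the reverse strand. In each, 1 copy began 45 bases before the start. ACCCCAC was found in the Hmgcs1 window, 135 to 129 bases before the start, and not in that of Idi1. The promoter table held 5 of the 8 genes, these and Lss, Cyp51 and Srebf2. All 5 held CCAAT and GGGCGG, the letters of the Sp1 box, which stood in 33.8% and 32.7% of the 32851 windows of the same length in the table. ACCCCAC stood in 1 of the 5 and in 5.44% of all windows, and AAATCAC, part of the consensus of the Gfi1 family, in 0 of the 5 and in 2.75%. Both strands were searched, and no copies overlapped in the windows of Idi1 and Hmgcs1. These matches describe letters and do not show that a factor binds.

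The cholesterol genes did not move together. Both probe sets of Idi1 rose in the samples labelled KO, while Fdps and 1 of the probe sets of Hmgcs1 fell, and Fdft1, Sqle, Lss, Cyp51 and Srebf2 had no probe set past the test. Of the 22 probe sets, 2 rose, 2 fell and 18 did not pass in limma at an adjusted p under 0.05 over all probe sets. Over all 45037 probe sets 2.93% were called, 1.53% higher and 1.4% lower. Group ranges were apart at 11 of the 22 probe sets, against 22.8% of all probe sets. Of these 3 stood above wildtype and 8 below, against 12.5% and 10.2% of all. At an unadjusted p under 0.05 there were 12 of the 22, 4 higher and 8 lower, against 16.9% of all probe sets. Probe sets of 1 gene read the same transcript, so these counts are not of independent genes. In the fit over genes Idi1 rose, Fdps fell and 6 of the 8 did not pass, 4 of the 8 had an unadjusted p under 0.05 against 19.2% of all genes, and the group ranges of 5 were apart against 25.2%. The median difference of the 22 probe sets was -0.13 and that of all probe sets 0.02 on the log2 scale.

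**Figure D1:**
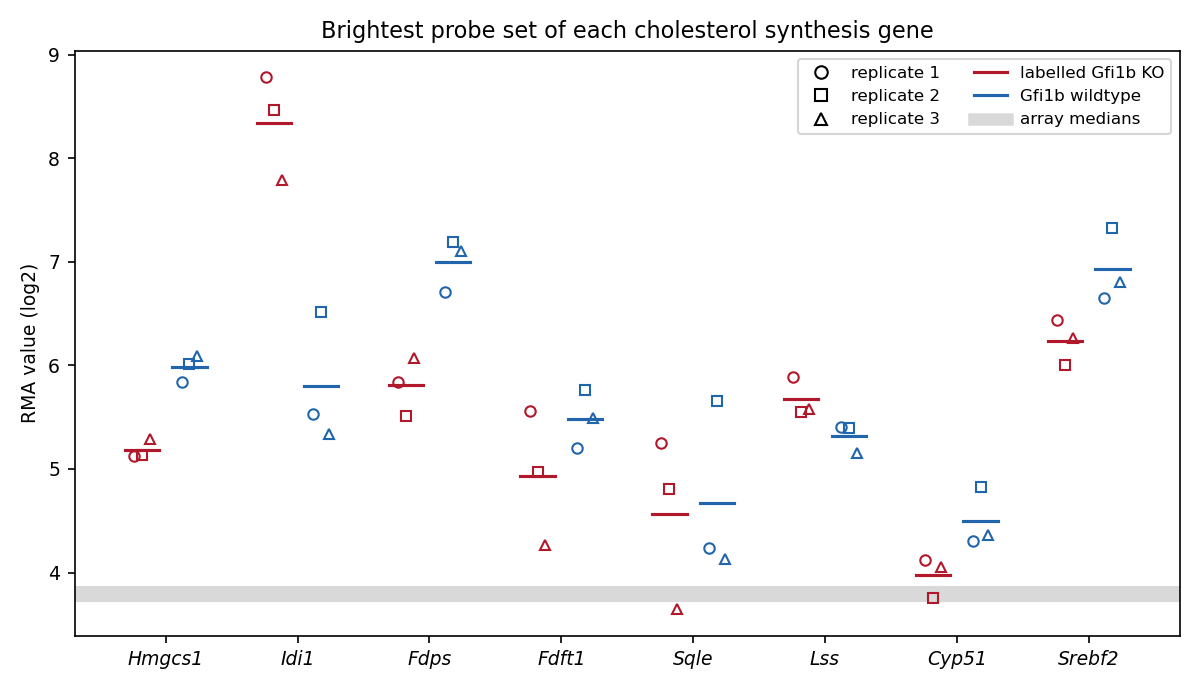
Log2 RMA values (y axis) of the brightest probe set of each of the 8 genes (x axis) in the 3 samples labelled Gfi1b KO (red) and the 3 wildtype samples (blue), with the group mean as a line. The symbols mark the replicate number and the grey band spans the array medians, 3.73 to 3.86. Idi1 stood higher in all 3 samples labelled KO, Fdps and Hmgcs1 stood lower in all 3, and the groups of Sqle and Fdft1 overlapped.

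Hmgcs1, the synthase that joins acetyl-CoA to acetoacetyl-CoA at the head of the route, was named by 5 probe sets. Its brightest, 1433443_a_at, read 5.13, 5.14 and 5.29 across KO replicates 1 to 3 and 5.84, 6.01 and 6.09 across wildtype replicates 1 to 3. All samples labelled KO lay below all wildtype samples, and the spread within each group was small. The difference was -0.79 with a standard error of 0.12 on the log2 scale, 1.73-fold lower (limma adjusted p = 0.0286). The next 3 probe sets differed by -0.75, -0.58 and -0.37 without passing (adjusted p = 0.176, 0.272 and 0.236), and their groups did not overlap either. These 4 probe sets also name the predicted locus LOC100040592, so a contribution of that locus cannot be told apart from Hmgcs1. The brightest and the next brightest are also of a kind that can match several transcripts. The remaining probe set names Hmgcs1 alone, but it averaged 3.61 ± 0.42 and 3.45 ± 0.24 (SD, n = 3), below the array medians, and cannot show a difference.

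Idi1, the isomerase that makes the reactive isoprenoid unit dimethylallyl diphosphate, had the largest difference of the 22 probe sets. Its brighter probe set, 1451122_at, read 8.78, 8.47 and 7.79 across KO replicates 1 to 3 and 5.53, 6.52 and 5.34 across wildtype replicates 1 to 3. The lowest sample labelled KO stood above the highest wildtype sample, which was replicate 2. Group means were 8.35 ± 0.51 and 5.80 ± 0.63 (SD, n = 3), a difference of 2.55 with a standard error of 0.38, 5.84-fold higher (limma adjusted p = 0.026). The second probe set, 1423804_a_at, read 6.70, 6.06 and 5.23 against 3.89, 3.71 and 3.50 and differed by 2.30 ± 0.36 (standard error; adjusted p = 0.0297). It is of a kind that can match several transcripts, and its wildtype values lay near the array medians, where differences are compressed. In bulk marrow, fewer cells of a type and less RNA per cell cannot be told apart, and this holds for all genes described here.

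Fdps, the synthase that makes farnesyl diphosphate from the isoprenoid units, fell where Idi1 rose. Probe set 1423418_at read 5.84, 5.52 and 6.07 across KO replicates 1 to 3 and 6.70, 7.19 and 7.11 across wildtype replicates 1 to 3. The groups did not overlap, and their means were 5.81 ± 0.28 and 7.00 ± 0.26 (SD, n = 3). The difference was -1.19 with a standard error of 0.20, 2.28-fold lower (limma adjusted p = 0.0343). The other probe set of Fdps averaged 3.10 and 3.04, below the array medians, and cannot check it.

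These calls rest on the full set of 6 arrays. The Idi1 difference at 1451122_at stayed between 2.32 and 2.91 with any 1 sample left out. It no longer passed without KO replicate 1 (adjusted p = 0.0762), KO replicate 2 (0.123), wildtype replicate 1 (0.0758) or wildtype replicate 3 (0.0668), and passed without KO replicate 3 (0.0408) or wildtype replicate 2 (0.00807). The second Idi1 probe set lost its call without KO replicate 2 (0.132), wildtype replicate 1 (0.0724) or wildtype replicate 3 (0.0829). In the fit over probe sets Fdps lost its call with any 1 sample left out, with differences from -1.34 to -1.04 and adjusted p from 0.0525 to 0.118. In the fit over genes it kept its call without KO replicate 3 (0.0481), wildtype replicate 1 (0.0491) or wildtype replicate 2 (0.0465). Hmgcs1 at 1433443_a_at kept its call only without wildtype replicate 2 (adjusted p = 0.046), and its adjusted p was 0.0541 to 0.11 in the other 5 fits. Its adjusted p was also 0.0551 with quantile normalization repeated and 0.0826 with an intensity trend. With an intensity trend the adjusted p of Fdps was 0.0506 in the fit over probe sets and 0.0402 in the fit over genes. In the fit over genes, which takes the probe set that names Hmgcs1 alone, Hmgcs1 differed by 0.16 (adjusted p = 0.792). All probe sets called numbered 1319, against 49 without KO replicate 2 and 2187 without wildtype replicate 2.

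**Figure D2:**
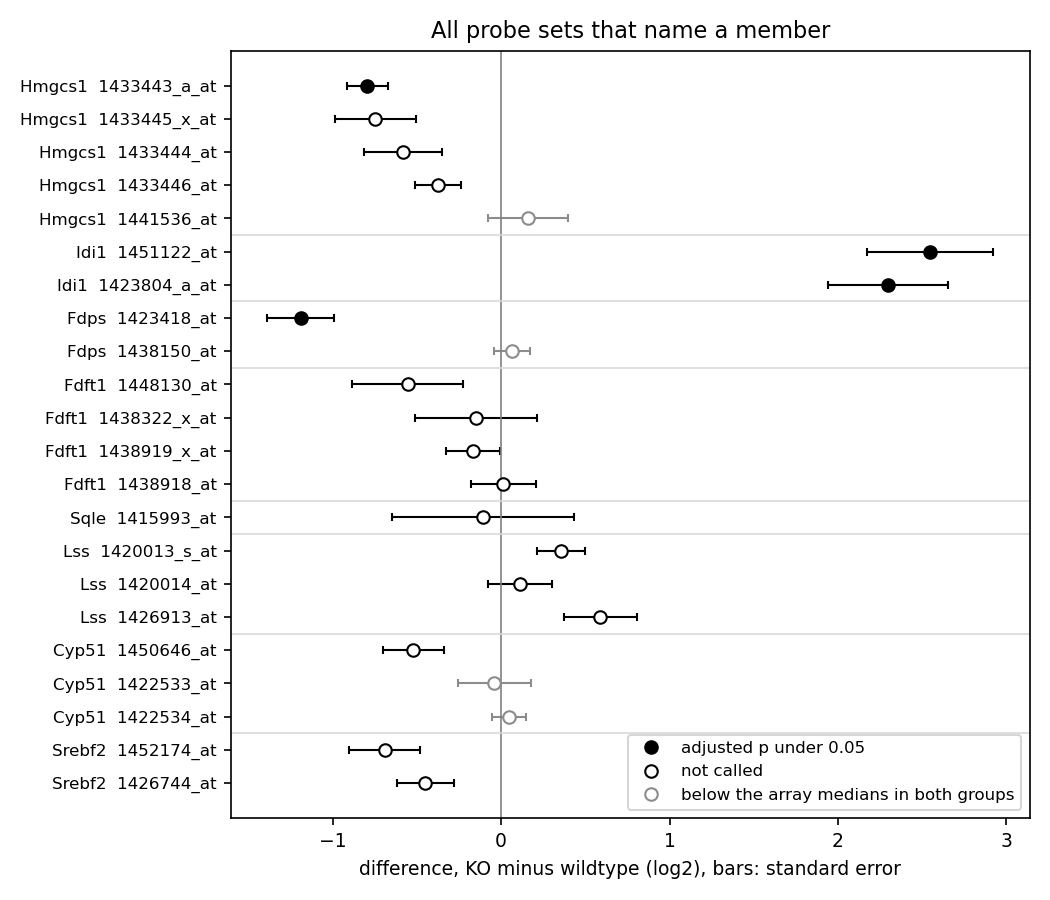
Difference between groups (x axis, KO minus wildtype, log2) with its limma standard error for all 22 probe sets (y axis), grouped by gene in the order of the route with Srebf2 last. Filled points passed an adjusted p under 0.05 over all probe sets, and grey points lay below the array medians in both groups. Both Idi1 probe sets stood above 2, and the called probe sets of Hmgcs1 and Fdps stood at -0.79 and -1.19.

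Fdft1 and Sqle, the squalene synthase and the squalene epoxidase, varied more within the groups than between them. Fdft1 at its brightest probe set read 5.56, 4.97 and 4.27 in the samples labelled KO and 5.20, 5.77 and 5.49 in wildtype, a difference of -0.56 with a standard error of 0.33 (limma adjusted p = 0.472). Its other 3 probe sets differed by -0.17 to 0.01. Of these, 1438322_x_at and 1438919_x_at are of a kind that can match several transcripts. The predicted locus EG627717 is also named by 1438919_x_at and 1438918_at. Sqle, the gene of the first oxygenation of the route, read 5.25, 4.81 and 3.65 in the samples labelled KO and 4.24, 5.65 and 4.13 in wildtype. Both groups of Sqle spanned more than a log2 unit and overlapped, and the difference was -0.11 with a standard error of 0.54 (adjusted p = 0.949). For both genes KO replicate 3 was the lowest of the 6 samples and wildtype replicate 2 the highest.

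Lss and Cyp51 act next, the first closing squalene epoxide into lanosterol and the second removing a methyl group from it. Lss read 5.89, 5.55 and 5.58 in the samples labelled KO and 5.41, 5.39 and 5.15 in wildtype, with no overlap, and differed by 0.36 with a standard error of 0.14 (limma adjusted p = 0.277). Its other probe sets differed by 0.11 and 0.59, the latter in a range near the array medians. The brightest is of a kind that can match several transcripts. With such probe sets left out, Lss differed by 0.11 in the fit over genes (limma adjusted p = 0.823). Cyp51 read 4.12, 3.76 and 4.05 in the samples labelled KO and 4.30, 4.83 and 4.36 in wildtype. The samples labelled KO lay near the array medians, where differences are compressed. The groups of Cyp51 did not overlap, but the difference of -0.52 with a standard error of 0.18 did not pass (adjusted p = 0.215). Its other 2 probe sets lay below the array medians in both groups.

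Srebf2, which encodes the activator SREBP-2, read lower in all samples labelled KO at both of its probe sets without passing. The brighter read 6.44, 6.00 and 6.27 in the samples labelled KO and 6.65, 7.32 and 6.81 in wildtype. Wildtype replicate 2 stood highest of the 6 samples, as it did for Fdps, Fdft1, Sqle and Cyp51 at their brightest probe sets, and for Idi1 it stood highest within wildtype. The difference was -0.69 with a standard error of 0.21 (limma adjusted p = 0.159), and -0.45 at the second probe set (adjusted p = 0.24). Without wildtype replicate 2 the difference of the brighter probe set was -0.49 in the fit over genes.

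Markers of other cells moved with the groups. The erythroid list of 16 genes, of which 6 rose and 0 fell, averaged 9.46, 9.22 and 7.68 across KO replicates 1 to 3 and 6.66, 7.98 and 6.09 across wildtype replicates 1 to 3. Idi1 and Sqle at their brightest probe sets had the same order of samples as this list within each group, while the second Idi1 probe set, Hmgcs1, Fdps, Fdft1, Lss, Cyp51 and Srebf2 did not. Of 12 measured granulocyte genes 11 fell, with list means of 4.23 to 6.92 in the samples labelled KO and 10.77 to 12.49 in wildtype. Over all 20577 genes 4.53% were called and 19.2% had an unadjusted p under 0.05. No erythroid or granulocyte marker lay below the array medians in both groups. The T and NK list, with 0 of 12 genes called and 1 at an unadjusted p under 0.05, averaged 7.54 in wildtype replicate 2 and 4.78 to 5.39 in the other samples. The proliferation list, with 0 of 14 called and 3 at an unadjusted p under 0.05, averaged 6.37 in KO replicate 3 and 7.60 to 8.10 in the others. Of 7 measured B cell genes 2 fell and 4 lay below the array medians in both groups, with list means of 4.01 to 4.08 in the samples labelled KO and 4.86 to 4.92 in wildtype. Of 10 measured interferon response genes 1 fell and all 10 differed below 0, with list means of 4.03 to 4.14 in the samples labelled KO. The wildtype means of that list were 6.94 in replicate 1, which stood apart, 4.86 in replicate 2 and 4.93 in replicate 3. Among megakaryocyte genes 1 of 7 rose, and among stroma and fat genes 1 of 8. The part of these cells, of proliferation and of interferon response in the cholesterol gene values was not tested.

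By the root mean square difference of values centred on each gene's mean over the 6 samples, the genes most like the mean of the 8 were Sema3f (0.104), Bcl2l1 (0.111), Gsk3a (0.123), Timm50 (0.133) and Kctd7 (0.134), among 4423 genes with a mean of at least 6. The mean of the 8, 5.39 in both groups, takes Hmgcs1 at its dim probe set. With the brightest Hmgcs1 probe set, an alternative chosen after seeing the data, the mean differed by -0.12 and the closest genes were Gsk3a (0.0963), Bcl2l1 (0.1), Timm50 (0.104), Kctd7 (0.115) and Dnm2 (0.125). Idi1 was also compared by itself, a choice made after its values were seen. The genes most like Idi1 were Gata1 (0.221), the regulator of red cell differentiation, then Hmgb3 (0.257), Adcy6 (0.284), Ppp1r15a (0.312) and Abcb4 (0.325). Gata1 read 9.34, 9.03 and 8.75 in the samples labelled KO and 5.99, 6.83 and 5.65 in wildtype.

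The measured genes next to Idi1 in the RefSeq order of chromosome 13 were also read, after the value of Idi1 was seen. Gtpbp4, which encodes a GTPase of ribosome assembly and is the next measured gene on the side of higher coordinates, read 8.18, 8.06 and 8.80 in the samples labelled KO and 6.44, 6.69 and 5.59 in wildtype. It rose by 2.10 with a standard error of 0.33 (limma adjusted p over genes = 0.025). Beyond it Larp4b differed by 0.23 (adjusted p = 0.702). On the other side Wdr37 differed by 0.56 (adjusted p = 0.169), and Adarb2 lay below the array medians in both groups.

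**Figure D3:**
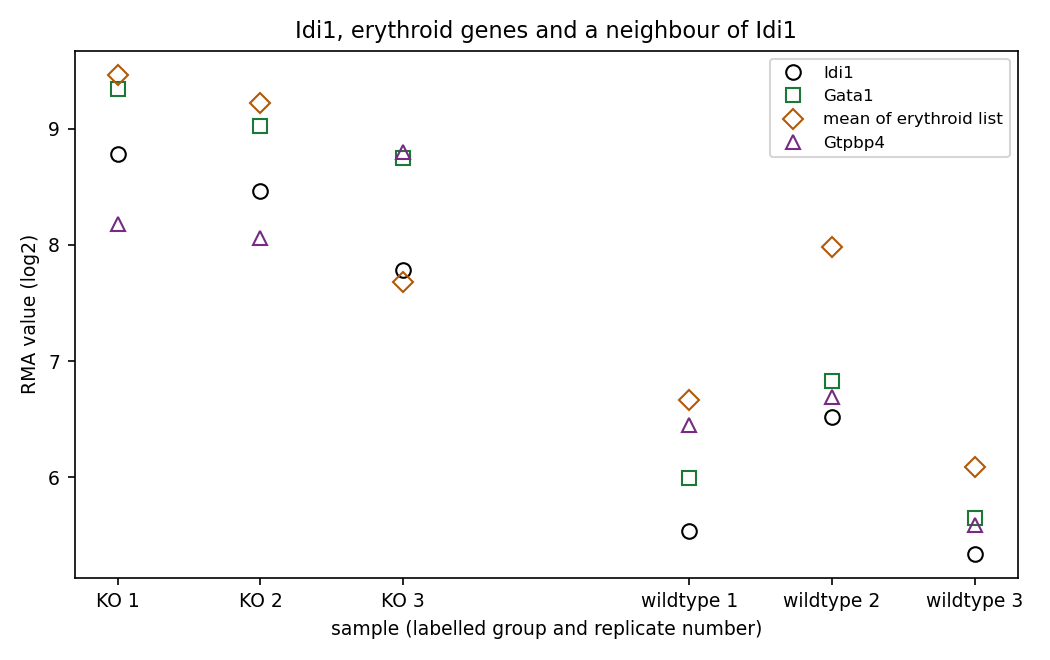
Log2 RMA values (y axis) of Idi1, Gata1, Gtpbp4 and the mean of the erythroid list of 16 genes in each of the 6 samples (x axis), 1 symbol per series and sample. Within wildtype all 4 were highest in replicate 2, at 6.52 for Idi1 and 7.98 for the list mean. Among the samples labelled KO, Idi1 and the list mean were lowest in replicate 3 while Gtpbp4 was highest there, at 8.80.

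Beyond the 8 genes, 6 lists of the wider pathway held 76 genes, of which 71 had a probe set of their own. In limma over all genes 1 rose, Rabggtb, 1 fell, Soat1, and 69 did not pass, where 2.2% of all genes rose and 2.33% fell. An unadjusted p under 0.05 was reached by 19.2% of all genes, the share to set beside the counts of each list. Among 15 other enzymes of cholesterol synthesis 0 passed and 2 had an unadjusted p under 0.05, 12 differed below 0 and 3 above, and the median was -0.22 against 0.01 for all genes. The list means were 5.21 to 5.54 in the samples labelled KO and 5.64 to 5.76 in wildtype and did not overlap. Msmo1, a sterol demethylase subunit, differed by -1.31 (adjusted p = 0.108), and Lbr, a sterol reductase that is also a nuclear envelope protein, by -0.72 (adjusted p = 0.179). The brighter probe set of Msmo1 is of a kind that can match several transcripts, and the other differed by 0.17.

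Of 9 measured genes of SREBP processing 0 passed and 2 had an unadjusted p under 0.05, with a median of -0.04. Here and in the next lists the share of all genes at an unadjusted p under 0.05 was 19.2%. Rnf139, a ubiquitin ligase of the endoplasmic reticulum, read 8.87, 8.66 and 7.91 in the samples labelled KO and 7.87, 7.37 and 7.31 in wildtype and differed by 0.96 (limma adjusted p = 0.127). With its probe sets averaged, Rnf139 passed at 0.79 (adjusted p = 0.0247). Erlin1, a membrane scaffold of the endoplasmic reticulum, differed by -0.76 (adjusted p = 0.248), and by -1.08 with a call without wildtype replicate 2 (adjusted p = 0.0464). Among 12 measured genes of fatty acid synthesis and other SREBP targets 0 passed, 3 had an unadjusted p under 0.05, 8 differed above 0, and the median was 0.42. Tmem97, a sterol-regulated membrane protein, differed by 1.19 (adjusted p = 0.0561) and Stard4, a cholesterol carrier, by 0.78 (adjusted p = 0.081), both with no overlap between the groups. Tmem97 passed with array weights (adjusted p = 0.0419) and with dim genes left out (adjusted p = 0.0324). It did not pass with a replicate block (adjusted p = 0.109) or with any 1 sample left out (0.0591 to 0.163). With its probe sets averaged, Stard4 differed by 0.29 (adjusted p = 0.424). Of 10 genes of LXR, the receptor for oxysterols, and of efflux 0 passed and 1 had an unadjusted p under 0.05, with a median of 0.09. Abca1, the main cholesterol efflux pump, differed by 1.30 (adjusted p = 0.2) with overlapping groups, and Lpcat3, an enzyme that remodels phospholipids, by 0.47 (adjusted p = 0.268).

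Storage of cholesterol held the largest fall of the wider lists. Soat1, which esterifies cholesterol for storage in lipid droplets, read 3.58, 3.98 and 3.92 across KO replicates 1 to 3 and 6.16, 5.56 and 6.89 across wildtype replicates 1 to 3. The samples labelled KO lay near the array medians and all wildtype samples well above them. Its difference of -2.37 with a standard error of 0.33 (limma adjusted p over genes = 0.0184) is therefore measured against values near the array medians, where differences are compressed. Soat1 had 4 probe sets, of which 3 fell, by 2.37, 2.48 and 2.51, and the fourth lay below the array medians in both groups. Soat1 no longer passed without KO replicate 1 (adjusted p = 0.0646), KO replicate 2 (0.0926), KO replicate 3 (0.0525) or wildtype replicate 1 (0.0566). Monocyte and macrophage genes moved the same way, with 6 of 13 falling and list means of 4.21 to 4.80 in the samples labelled KO and 6.06 to 7.35 in wildtype, and their part in the Soat1 value was not tested.

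The other 13 of the 14 genes of uptake, storage and transfer did not pass. Of the 14, 7 had an unadjusted p under 0.05 and the groups of 6 did not overlap, against 19.2% and 25.2% of all genes. Both counts included Soat2, which was higher in the samples labelled KO (0.35, limma adjusted p = 0.166) and dim in both groups. The rest of both counts differed below 0. The median of the 14 was -0.42, with 12 below 0. Lrp1, a receptor that takes up lipoprotein remnants and many other ligands, and Scarb1, the receptor for HDL, were named after their values were seen. Lrp1 read 4.95, 3.96 and 3.52 in the samples labelled KO and 6.59, 5.29 and 5.98 in wildtype and differed by -1.81 (limma adjusted p = 0.0829). Scarb1 differed by -1.27 (adjusted p = 0.185). Neither had overlapping groups, and neither was past the threshold.

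On the isoprenoid side branches 1 of 11 measured genes passed and 2 had an unadjusted p under 0.05, the latter against 19.2% of all genes. Rabggtb, the catalytic subunit of the transferase that attaches geranylgeranyl groups to Rab GTPases, read 6.92, 7.02 and 7.52 in the samples labelled KO and 5.99, 5.93 and 5.54 in wildtype. It rose by 1.33 with a standard error of 0.21 (limma adjusted p = 0.0249). Its only probe set is of a kind that can match several transcripts. Rabggtb no longer passed without KO replicate 1 (adjusted p = 0.0528), KO replicate 2 (0.102), wildtype replicate 1 (0.0604) or wildtype replicate 3 (0.0664). Rabggta, the partner subunit named after its value was seen, differed by -0.50 (adjusted p = 0.495), and the median of the list was 0.01.

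**Figure D4:**
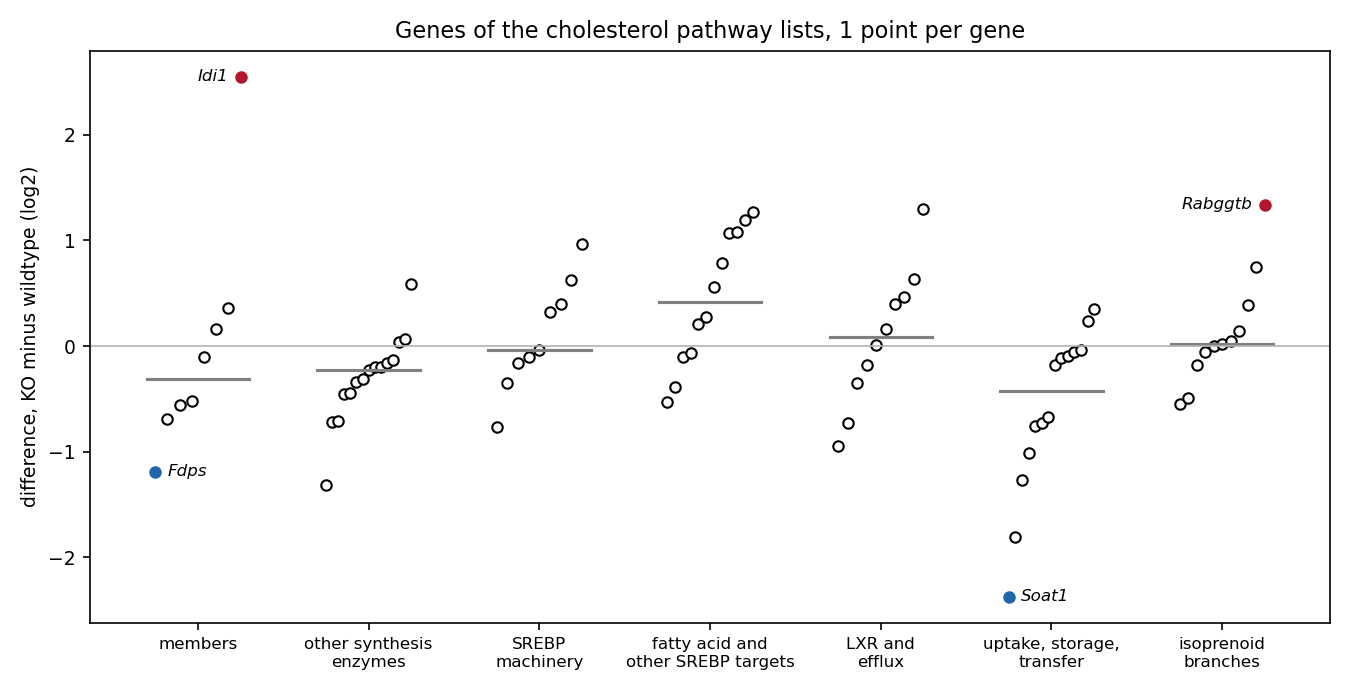
Difference between groups (y axis, KO minus wildtype, log2) for each gene of the 8 members and of the 6 wider lists (x axis), 1 point per gene at its brightest probe set that names 1 gene, with the list median as a grey line. Red and blue points passed over all genes, higher or lower in the samples labelled KO: Idi1, Rabggtb, Fdps and Soat1. Hmgcs1 is drawn at 0.16, the dim probe set that names it alone.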

How the data were processed

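Gene expression was measured in 6 samples of leukaemic mouse marrow on Affymetrix arrays. The submitters' processing notes name RMA for the deposited log2 values, with no version. RMA adjusts background, applies quantile normalization and combines the probes of a set. The authors' deposited table pairs them with gene symbols, signed fold changes, and p-values for KO against wildtype. The signed fold change is held as a score, as deposited by the authors, and was not used. The largest difference between the log2 values per sample of the authors' table and those of the value table, compared as sorted values within groups, was 0. Per the labels, 200 ng of RNA was used.

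The comparison, labelled KO less wildtype, used limma 3.58.1 under R 4.3.3. Moderated tests were two-sided and p-values were adjusted by Benjamini-Hochberg across each full table. One fit took all 45037 probe sets that are not controls, and gives the values of the 8 genes. Another took 20577 genes, each at the brightest of the 37285 probe sets that name 1 gene, and gives the wider lists. Symbols were updated through RefSeq synonyms. There was no filter and no further normalization.

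The 8 genes, the lists and the rules were chosen with earlier results of these data known. All probe sets of the 8 genes are described. Of each wider list the genes past the threshold are named, and otherwise the 2 with the smallest p. Some genes of the pathway are not reported here. The alternatives tried were leaving out each sample, a block for the replicate number, repeated quantile normalization, an intensity trend, robust moderation, array weights, a filter on dim features (mean under 5), the mean of all probe sets, probe sets that can match several transcripts left out, thresholds of 0.1 and 0.01, and the authors' adjusted p. Letting probe sets that also name predicted loci represent a gene was chosen after seeing the data. The fit was tested on simulated data. Figures were drawn with matplotlib 3.10.9.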

Additional observations from a re-analysis of the deposited data

How the results depend on the processing

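Of the 22 probe sets 4 were called, and 0 to 3 with 1 sample left out. The count was 2 with a replicate block, 2 with an intensity trend, 2 without probe sets that can match several transcripts, and 0 at a threshold of 0.01. In the fit over genes 2 of the 8 were called, Idi1 and Fdps, and 0 to 2 with 1 sample left out, 1 with a replicate block, 1 with probe sets averaged per gene, and 0 at a threshold of 0.01. Over all genes 933 were called, 47 to 1445 with 1 sample left out, 589 with a replicate block, 1778 at a threshold of 0.1 and 109 at 0.01. Over all probe sets 1319 were called, 49 to 2187 with 1 sample left out, 833 with a replicate block, 2645 at a threshold of 0.1 and 129 at 0.01. The lowest counts over all genes and over all probe sets came without KO replicate 2. The highest came at the threshold of 0.1, and the next highest without wildtype replicate 2. Another threshold changes the counts by construction, and the cause of the other changes was not tested. With a replicate block the Fdps probe set (adjusted p = 0.0731), that of Hmgcs1 (0.071) and Rabggtb (0.0765) no longer passed. Whether the replicate numbers pair the samples was not settled. Deviations from the group means correlated at -0.14, -0.03 and -0.02 for numbers 1, 2 and 3. The highest correlation across numbers was 0.13, for KO replicate 2 with wildtype replicate 1. Deviations within a group constrain each other, so these values cannot show whether samples were paired. Hmgcs1 went from 0.16 to -0.79 (adjusted p = 0.0268) when probe sets that also name predicted loci could represent it. Sqle, with no call, ranged from -0.45 to 0.38 with 1 sample left out, and went to 0.35 without KO replicate 3, 0.38 without wildtype replicate 2 and 0.18 with array weights, and Msmo1 to 0.17 without probe sets that can match several transcripts. Idi1 and Fdps kept their direction in all alternatives run.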
